A study of Caenorhabditis elegans with 6 samples.

Results

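The 10 genes described here are the 6 vitellogenin genes of *C. elegans* (*vit-1* to *vit-6*), the yolk receptor gene *rme-2*, and *unc-62*, *ceh-60* and *pqm-1*, which encode transcription factors linked to vitellogenin expression. The rule that chose them used gene symbols, but the choice was made with earlier results of these data known. They are 10 of the 46936 genes in the count table. All 10 passed the filter on low counts and are among the 14534 genes tested. Messenger RNA of whole animals was sequenced from 3 control and 3 MProPow2-treated biological replicates. Both groups were N2 wild-type animals, synchronized by bleaching and kept at 20 °C from the L1 stage on plates with *E. coli* OP50. MProPow2, a batch of powder made from hydrolyzed buttermilk protein with milk fat globule membrane, was applied to plates at 1 mg/mL in water, and control plates received water only. Animals of both groups were moved at the L4 stage to plates with 10 µM 5-FU, which prevents progeny production, and were collected on day 2 of adulthood. Each library mixes the RNA of all tissues, so more cells of a type and more RNA per cell cannot be told apart.

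Vitellogenins are large lipid-binding proteins related to vertebrate vitellogenin and to apolipoprotein B. In adult hermaphrodites the intestine transcribes the *vit* genes, loads the proteins with lipid and secretes them into the body cavity, and oocytes take the particles up by endocytosis through the receptor RME-2. *vit-1* to *vit-5* encode the YP170 yolk proteins, and *vit-6* encodes a precursor that is cut into YP115 and YP88. In the RefSeq annotation of the worm genome (WBcel235), *vit-1* to *vit-5* lie on chromosome X and *vit-6* on chromosome IV, and *vit-3* and *vit-4* are direct neighbours. In the Ensembl 115 annotation, the coding length of *vit-3*, *vit-4* and *vit-5* is 4809 bases each. It is 4848 for *vit-1*, 4839 for *vit-2* and 4953 for *vit-6*. Because *vit-3*, *vit-4* and *vit-5* are close copies of each other, as are *vit-1* and *vit-2*, and the counting of reads that match several copies is not given in the sources used here, the split of reads within each set is uncertain.

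The yolk protein genes were among the most abundant transcripts of these animals, and their summed level was higher after MProPow2 treatment. The 6 genes together took 11.11%, 12.3% and 11.2% of all counts in control libraries 1, 2 and 3. In MProPow2 libraries 1, 2 and 3 they took 15.03%, 15.4% and 15.7%. The groups did not overlap, and the mean share was 11.5% ± 0.65 (SD, n = 3) in control and 15.4% ± 0.31 (n = 3) in MProPow2. In TMM-scaled CPM (counts scaled to a common library size), the sum was 115389 ± 6380 in control and 153646 ± 6154 in MProPow2, a ratio of 1.33 that was not tested. The ratio of the summed levels per length (FPKM) was 1.34. Libraries held 28859395 to 37501098 counts, so counting error was small for the vitellogenins, and the spread between replicates set the precision.

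**Figure D1:**
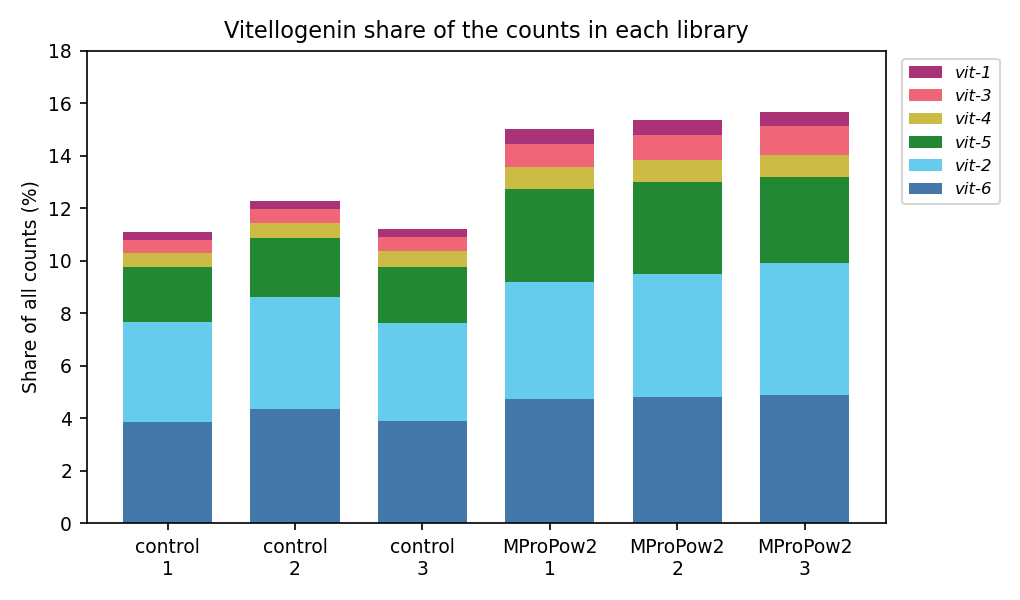
Share of all counts (%, bars from 0) taken by each of the 6 vitellogenin genes, stacked, in each of the 3 control and 3 MProPow2 libraries. The stacks reach 11.11% to 12.3% in control and 15.03% to 15.7% in MProPow2, with *vit-6* and *vit-2* as the 2 thickest layers in every library.

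Of the 6 vitellogenin genes, 4 were called higher in MProPow2-treated animals by edgeR's quasi-likelihood test at an adjusted p under 0.05 over all genes tested, and 0 were called lower. Among the 14534 genes tested, 1.53% were called higher and 1.47% lower, that is 223 and 214 genes, and with upper-quartile scaling the split was 229 and 131. At an unadjusted p of 0.05 edgeR also gave 4 of the 6 higher and 0 lower, and DESeq2 gave 6 higher and 0 lower, 4 of them at its adjusted p. Among the 14534 genes of edgeR, an unadjusted p of 0.05 gave 9.13% (1327 genes) higher and 7.75% lower. In DESeq2, run without that filter, it gave 4.55% higher, or 1210 of 26606 genes. The adjusted p of DESeq2 gave 2.16% higher of 15772 genes. The shares of the 2 tools have unlike denominators. The median log2 fold change of the 6 was 0.62, against -0.01 over all genes tested. For each of the 6, every MProPow2 library lay above every control library, and 23.3% of all genes tested showed groups without overlap, in either direction. The smallest two-sided p of an exact permutation test with 3 libraries against 3 is 0.1, and the calls therefore come from the fit across all genes.

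*vit-1* (identifier 181034), per length the least abundant of the 6, stood at 3049, 3137 and 2897 CPM in the control libraries. In the MProPow2 libraries it stood at 5638, 5701 and 5443 CPM. Its replicates lay close together in both groups and the groups were far apart. The mean rose from 3028 ± 122 to 5594 ± 135 CPM (SD, n = 3 each). On the log2 scale the change was 0.89 with a standard error of 0.11 (edgeR adjusted p = 0.0038) and a 95% interval of 1.57-fold to 2.18-fold. Ordered by p, *vit-1* was number 4 of the genes with higher values in MProPow2, and it was called in each of the 6 fits that left out 1 library.

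*vit-3* (identifier 24104675) had a fold change of the same size but a wider spread in treated animals. It stood at 5114, 5425 and 5480 CPM in control and at 9030, 9345 and 11294 CPM in MProPow2, where replicate 3 was the highest. The mean rose from 5340 ± 197 to 9890 ± 1226 CPM, with a log2 fold change of 0.89 (standard error 0.13, edgeR adjusted p = 0.0082). The 95% interval ran from 1.52-fold to 2.25-fold.

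*vit-5* (identifier 180630) was, per length, the most abundant of the YP170 genes after *vit-2*. It stood at 20979, 22530 and 21292 CPM in control and at 35094, 34304 and 33526 CPM in MProPow2. The mean rose from 21600 ± 820 to 34308 ± 784 CPM, with a log2 fold change of 0.67 (standard error 0.12, edgeR adjusted p = 0.020). Both groups were tight, and the lowest treated library stood well above the highest control library.

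*vit-4* (identifier 180646), the neighbour of *vit-3* on the chromosome, showed the smallest called change of the family. It stood at 5352, 5635 and 5850 CPM in control and at 8381, 8025 and 8686 CPM in MProPow2. The mean rose from 5612 ± 250 to 8364 ± 331 CPM, with a log2 fold change of 0.58 (standard error 0.11, edgeR adjusted p = 0.027), with a 95% interval of 1.26-fold to 1.77-fold. Leaving out any control library or MProPow2 replicate 1 ended the calls of *vit-4* and *vit-5* (adjusted p from 0.064 to 0.16), and leaving out control replicate 2 or 3 ended that of *vit-3* (0.062 and 0.059). With the counts of *vit-3*, *vit-4* and *vit-5* merged, the log2 fold change was 0.69 (standard error 0.12, not tested). With those of *vit-1* and *vit-2* merged, it was 0.32 (standard error 0.13, not tested), against 0.89 for *vit-1* alone. Most counts of that pair belonged to *vit-2*, so the merged value lies near that of *vit-2* whether or not *vit-1* changed. The value of *vit-1* alone depends on how reads were split between them, which was not tested.

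*vit-2* and *vit-6*, the most abundant genes of the family, had values in the same direction that did not pass the adjusted threshold. *vit-2* (identifier 180781) stood at 38174, 42600 and 37565 CPM in control and at 44516, 45768 and 51760 CPM in MProPow2. *vit-6* (identifier 177619) stood at 38863, 43426 and 38800 CPM in control and at 47263, 47122 and 50041 CPM in MProPow2. In both genes control replicate 2 was the highest control library and MProPow2 replicate 3 the highest treated library, and the groups were separated by a narrow gap. The mean of *vit-2* was 39446 ± 2748 CPM in control and 47348 ± 3872 CPM in MProPow2, with a log2 fold change of 0.26 (standard error 0.13, edgeR adjusted p = 0.34). That of *vit-6* was 40363 ± 2653 and 48142 ± 1646 CPM, with a log2 fold change of 0.25 (standard error 0.12, edgeR adjusted p = 0.33). The 95% intervals ran from 0.983-fold to 1.47-fold for *vit-2* and from 0.987-fold to 1.44-fold for *vit-6*, so equal levels lay just inside both.

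**Figure D2:**
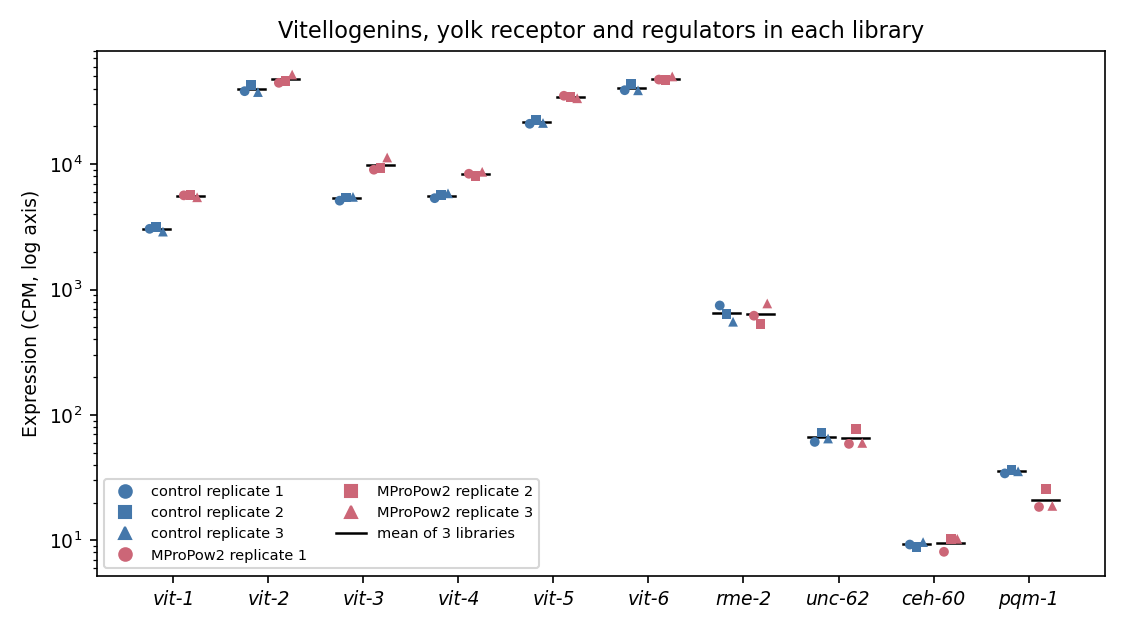
Expression in CPM (log axis) of the 10 genes in each library, with control in blue, MProPow2 in red, 1 symbol shape per replicate number and a black line at the mean of 3 libraries. All treated values of the 6 vitellogenins lie above the control values, those of *pqm-1* lie below, and those of *rme-2*, *unc-62* and *ceh-60* are intermixed.

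The make-up of the vitellogenin transcripts differed between the groups, which restates their unequal fold changes. *vit-1*, *vit-3*, *vit-4* and *vit-5*, the 4 genes called higher, together held 30.9% ± 0.91 of the vitellogenin counts in control (SD, n = 3). In MProPow2 they held 37.9% ± 1.09 (n = 3), and the remainder belonged to *vit-2* and *vit-6*. This set matches the calls, so its larger share and ratio are no further support for them. The summed CPM of the first set was 35581 ± 1118 in control and 58156 ± 787 in MProPow2, a ratio of 1.63, against a ratio of 1.197 for *vit-2* and *vit-6* summed. *vit-6* went from 34.97% to 31.3% of the vitellogenin counts and *vit-2* from 34.2% to 30.8%. *vit-5* went from 18.7% to 22.4%, *vit-3* from 4.63% to 6.42%, *vit-4* from 4.87% to 5.44% and *vit-1* from 2.63% to 3.65%. The groups did not overlap in any of these 6 shares, which are parts of 1 total and were not tested.

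The ratios between single vitellogenins were compared as well. Of the 15 log2 ratios of FPKM between 2 vitellogenins, 11 did not overlap between the groups. The 15 ratios share the same few genes and are not independent. Every ratio of a called to an uncalled gene was among the 11, which restates the calls. The 4 that overlapped were *vit-1* to *vit-3*, *vit-2* to *vit-6*, *vit-3* to *vit-5* and *vit-4* to *vit-5*. The FPKM ratio of *vit-2*, on chromosome X, to *vit-6*, on chromosome IV, was 1.003 ± 0.0080 in control and 1.008 ± 0.048 in MProPow2. The FPKM ratios of the neighbours *vit-3* to *vit-4* did not overlap, at 0.958, 0.965 and 0.939 in control and 1.08, 1.17 and 1.30 in MProPow2. These ratios were not tested, and the 3 near-identical genes may hold each other's reads.

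Per length, *vit-2* and *vit-6* were the most abundant of the 10 genes in both groups. In control their levels were 7839 ± 556 and 7816 ± 521 FPKM, with overlapping ranges. They were followed by *vit-5* at 4349 ± 167, *vit-4* at 1115 ± 46.3, *vit-3* at 1063 ± 36.7 and *vit-1* at 584 ± 24.9 FPKM, of which only *vit-4* and *vit-3* overlapped. In MProPow2, *vit-2* stood at 9466 ± 820, *vit-6* at 9377 ± 403, *vit-5* at 6948 ± 210, *vit-3* at 1981 ± 256, *vit-4* at 1672 ± 88.4 and *vit-1* at 1084 ± 21.99 FPKM. There only *vit-2* and *vit-6* overlapped, and *vit-3* stood above *vit-4*.

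*rme-2* (identifier 177329), the yolk receptor of oocytes and a member of the low-density lipoprotein receptor family, was not called in either direction. It stood at 746, 641 and 553 CPM in control and at 618, 534 and 774 CPM in MProPow2. The groups overlapped fully, with the highest and the lowest value both among treated libraries. The means were 647 ± 96.6 and 642 ± 122 CPM, and the log2 fold change was -0.01 (standard error 0.16, edgeR adjusted p = 0.99), with a 95% interval of 0.780-fold to 1.26-fold. The sum of the vitellogenins was 104 ± 16.1 times the level of *rme-2* in control and 141 ± 21.3 times in MProPow2, in FPKM. The highest control ratio, 116.6 in replicate 3, lay close to the lowest treated ratio, 119.9 in replicate 3.

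The spread of *rme-2* among libraries went with that of other oocyte transcripts. The 12 oocyte marker genes summed to 6725, 6057 and 5103 CPM in control and to 5365, 4815 and 6876 CPM in MProPow2, which puts the 6 libraries in the same order as *rme-2*. As a percentage of that sum, *rme-2* was 11.098%, 10.6% and 10.8% in control and 11.5%, 11.096% and 11.3% in MProPow2, and these ranges touch. The 9 germline markers gave the same order of libraries. Of the 21 oocyte and germline markers tested, edgeR called 0 at adjusted p, against 1.53% higher and 1.47% lower over all genes tested. With shares that low, 0 calls among so few genes says little about them. At an unadjusted p of 0.05, 0 of the 21 passed, against 9.13% higher and 7.75% lower over all genes tested. These orders were noticed after the values were seen, and the part of oocyte content in the level of *rme-2* was not tested.

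The 3 regulators behaved unequally. *unc-62* encodes a MEIS-type and *ceh-60* a PBX-type homeodomain protein, and both act in the intestine to promote vitellogenin expression. *unc-62* (identifier 178845) stood at 60.9, 72.6 and 64.8 CPM in control and at 58.8, 77.5 and 59.8 CPM in MProPow2. Replicate 2 was the highest library of each group, and the means were 66.1 ± 5.92 and 65.4 ± 10.6 CPM. The log2 fold change was -0.02 (standard error 0.12, edgeR adjusted p = 0.97), with a 95% interval of 0.820-fold to 1.19-fold.

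*ceh-60* (identifier 184803) was the least abundant of the 10 genes, with 261 to 332 counts per library. It stood at 9.26, 8.85 and 9.68 CPM in control and at 8.10, 10.2 and 10.3 CPM in MProPow2. The groups overlapped, and the log2 fold change was 0.04 (standard error 0.14, edgeR adjusted p = 0.93), with a 95% interval of 0.826-fold to 1.28-fold. In the RefSeq annotation, *ceh-60* overlaps *ets-4*, another transcription factor gene, and the strand setting of the counting is not given in the sources used here. *ets-4* had a log2 fold change of -0.13 (edgeR adjusted p = 0.62).

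*pqm-1* (identifier 174705) was the regulator that differed between the groups. It encodes a zinc finger transcription factor of the intestine that responds to insulin signalling in the opposite way to DAF-16. It stood at 34.2, 36.5 and 35.5 CPM in control and at 18.5, 25.7 and 18.8 CPM in MProPow2. All treated libraries lay below all control libraries, and MProPow2 replicate 2 was the closest to control. The mean fell to 59.3% of control, from 35.4 ± 1.18 to 20.997 ± 4.09 CPM. The log2 fold change was -0.75 (standard error 0.14, edgeR adjusted p = 0.024), with a 95% interval of 0.479-fold to 0.733-fold. DESeq2 called it lower as well, as it did 2.46% of its genes. The call was lost without control replicate 2 (adjusted p = 0.099), control replicate 3 (0.093) or MProPow2 replicate 1 (0.096). With limma it was lost in all 3 settings. The limma adjusted p was 0.11 on log2(FPKM + 1), 0.14 on log2(FPKM + 0.1) and 0.31 on log2(FPKM + 1) without a filter.

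Per length, *pqm-1* lay above *unc-62* in control, and the ranges of these genes overlapped in MProPow2. The FPKM ratio of *pqm-1* to *unc-62* was 1.77, 1.59 and 1.73 in control and 0.991, 1.05 and 0.992 in MProPow2, without overlap. The ratio of *ceh-60* to *unc-62* overlapped, at 0.363 ± 0.043 and 0.379 ± 0.055. The deposited FPKM of *unc-62* corresponds to a length 0.55 times that of its merged exons in the Ensembl annotation, against 1.02 times for each of the other 9 genes. With the merged length, *unc-62* would stand at 10.2 FPKM in control and 10.1 FPKM in MProPow2, below *pqm-1* in both groups.

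**Figure D3:**
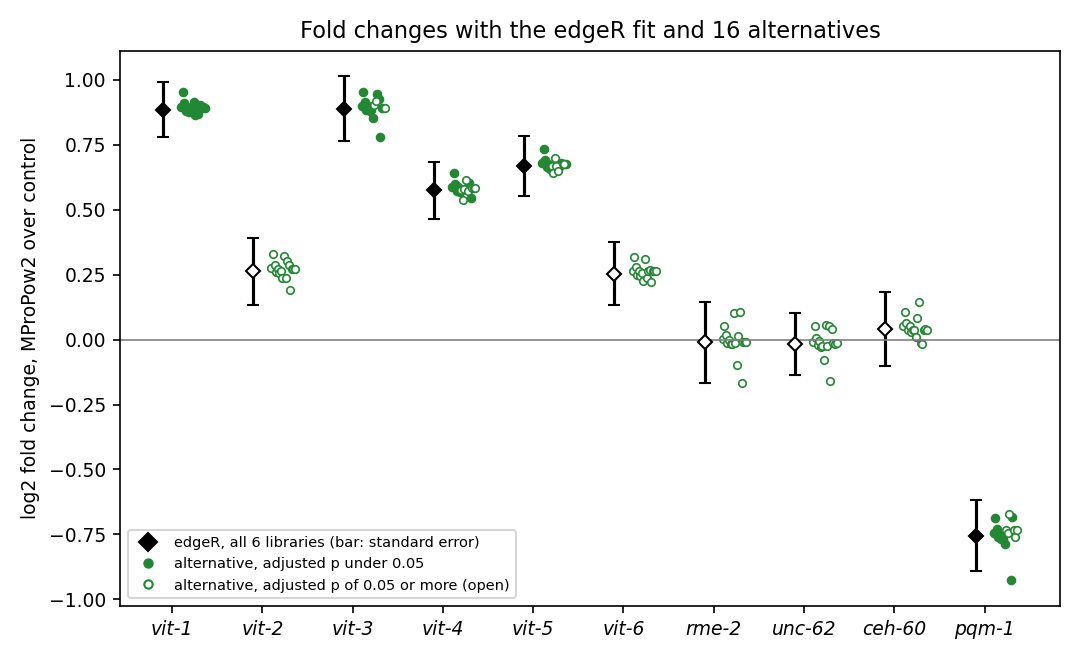
log2 fold change of MProPow2 over control for the 10 genes. Black diamonds with standard error bars are the edgeR fit on all 6 libraries, and green points are 16 alternative fits, filled where the adjusted p is under 0.05. *vit-1* is filled in all 16 alternatives and *vit-2*, *vit-6*, *rme-2*, *unc-62* and *ceh-60* in 0 of them, and *pqm-1* lies below 0 in all.

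Marker genes of 8 tissues or cell types were examined in the same libraries, and edgeR made calls at adjusted p in the intestine and body wall muscle lists only, while DESeq2 also called 1 neuron marker lower. Of 10 intestine markers, 0 were called higher and 1 lower, against 1.53% and 1.47% over all genes tested. Their median log2 fold change was -0.27, against -0.01 over all genes tested. At an unadjusted p of 0.05, edgeR gave 6 of the 10 lower and 0 higher, against 7.75% lower over all genes tested. The 1 called was *asp-1*, an intestinal aspartic protease, at 3652 ± 277 CPM in control and 1969 ± 463 CPM in MProPow2, with a log2 fold change of -0.89 (standard error 0.16, edgeR adjusted p = 0.024). Its call depended on control replicates 2 and 3 and MProPow2 replicate 1, with an adjusted p of up to 0.10 when 1 of them was left out, and it was lost in all 3 limma settings (up to 0.36). The summed level of the list ran from 4592 to 5120 CPM in control and from 2590 to 3699 CPM in MProPow2, while the vitellogenins, which the intestine also transcribes, were higher in those same treated libraries. The part of intestinal content in the levels of the vitellogenins and of *pqm-1* was not tested.

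Set against the intestine markers, *pqm-1* gave 2 different pictures. As a percentage of all 10 summed, *pqm-1* was 0.744%, 0.713% and 0.6999% in control and 0.713%, 0.695% and 0.677% in MProPow2, which overlap. *asp-1* alone made up 74.0% of that sum in control. As a percentage of the other 9, *pqm-1* was 2.71%, 2.82% and 2.79% in control and 1.83%, 2.11% and 2.02% in MProPow2, without overlap. The other 9 summed to 1277 ± 17.8 CPM in control and 1054 ± 149 CPM in MProPow2. These ratios were chosen after the values were seen and carry no test.

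Body wall muscle markers were also lower, with 0 of 7 called higher and 4 called lower, against 1.53% and 1.47% over all genes tested. Their median log2 fold change was -0.49. At an unadjusted p of 0.05, edgeR gave 5 of the 7 lower and 0 higher, against 7.75% lower over all genes tested. The 3 of smallest p were *tnt-2* at -0.56, *lev-11* at -0.54 and *mup-2* at -0.49, which encode troponin T, tropomyosin and a further troponin T, with edgeR adjusted p of 0.010, 0.019 and 0.024. Their summed level ran from 1014 to 1105 CPM in control and from 758 to 848 CPM in MProPow2. Leaving out control replicate 2, control replicate 3 or MProPow2 replicate 1 left 0 of the 7 called, and the 4 calls were also lost in each of the 3 limma settings. Of the embryo, sperm, hypodermis and neuron markers, 26 passed the filter and were tested, and edgeR called 0 of these in either direction. At an unadjusted p of 0.05, 3 of the 26 were lower and 0 higher, against 7.75% lower over all genes tested. The sperm markers (major sperm proteins) summed to between 1.90 and 10.4 CPM per library. The part of muscle content in the results was not tested.

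The genes around yolk synthesis and uptake showed few calls. They were grouped into 5 lists chosen by known function. The list of lipoprotein assembly and yolk processing held 9 genes. Of these, 0 were called higher and 1 lower, against 1.53% and 1.47% over all genes tested. All 9 had negative log2 fold changes, with a median of -0.23 against -0.01 over all genes tested. At an unadjusted p of 0.05, edgeR gave 3 of the 9 lower and 0 higher, against 7.75% lower over all genes tested. The gene called was *dsc-4* (identifier 176852), the worm homologue of the large subunit of microsomal triglyceride transfer protein, which loads lipid onto apolipoprotein B in mammals. It stood at 73.7, 75.4 and 75.2 CPM in control and at 45.5, 55.4 and 43.6 CPM in MProPow2. Treated libraries lay far below the narrow control range, and the log2 fold change was -0.63 (standard error 0.10, edgeR adjusted p = 0.015). Its call depended on the same 3 libraries as that of *asp-1* (adjusted p up to 0.071), and it was also lost in all 3 limma settings (up to 0.22). As a percentage of the 9 intestine markers other than *asp-1*, *dsc-4* was 5.86% ± 0.038 in control and 4.58% ± 0.097 in MProPow2, without overlap, and as a percentage of all 10 the groups overlapped.

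The other 8 genes of that list did not pass the adjusted threshold. They encode disulfide isomerases (*pdi-1*, *pdi-2* and *pdi-3*), chaperones of the endoplasmic reticulum (*hsp-3* and *hsp-4*), the vesicle coat proteins SEC-23 and SAR-1, and the cathepsin L CPL-1, which processes yolk in embryos. Their log2 fold changes ran from -0.30 for *cpl-1* to -0.09 for *sec-23*. The smallest adjusted p among them was 0.20, for *sar-1*.

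In the list of yolk uptake and oocyte endocytosis, 0 of 15 genes were called, against 1.53% higher and 1.47% lower over all genes tested. The list had a median log2 fold change of -0.02. It includes clathrin (*chc-1*), its adaptors, the dynamin *dyn-1*, Rab GTPases and the *rme* genes found in screens for oocytes that fail to take up yolk. The gene with the least adjusted p was *rab-11.1*, a GTPase of recycling endosomes, which stood at 475 ± 23.5 CPM in control and 410 ± 17.5 CPM in MProPow2 (log2 fold change -0.21, edgeR adjusted p = 0.29). No other gene of the list passed an unadjusted p of 0.05.

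The remaining 3 lists hold regulators upstream of the vitellogenins. By edgeR at adjusted p, 0 of their 28 genes were called, against 1.53% higher and 1.47% lower over all genes tested. The 7 intestinal transcription genes include the GATA factors *elt-2* and *elt-7*, which also stand in the intestine marker list, and *mab-3*, which represses vitellogenins in males. Their median log2 fold change was -0.06. The one with the least adjusted p was *daf-16*, the FOXO factor of insulin signalling, at 132 ± 13.1 CPM in control and 110 ± 6.07 CPM in MProPow2 (log2 fold change -0.26, edgeR adjusted p = 0.20). The 9 genes of developmental timing and TORC2 signalling had a median of -0.0011. Among them *sgk-1*, a kinase downstream of TORC2 whose loss lowers vitellogenin expression, stood at 31.7, 29.5 and 33.2 CPM in control and at 24.7, 29.5 and 20.2 CPM in MProPow2 (log2 fold change -0.34, edgeR adjusted p = 0.25). The 12 genes of insulin and TGF-beta signalling had a median of 0.0050, and the least adjusted p was that of *age-1*, the phosphoinositide 3-kinase (log2 fold change -0.20, edgeR adjusted p = 0.33). At an unadjusted p of 0.05, edgeR gave 2 of the 28 genes lower and 0 higher, against 7.75% lower and 9.13% higher over all genes tested. DESeq2 called 0 of the 28.

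**Figure D4:**
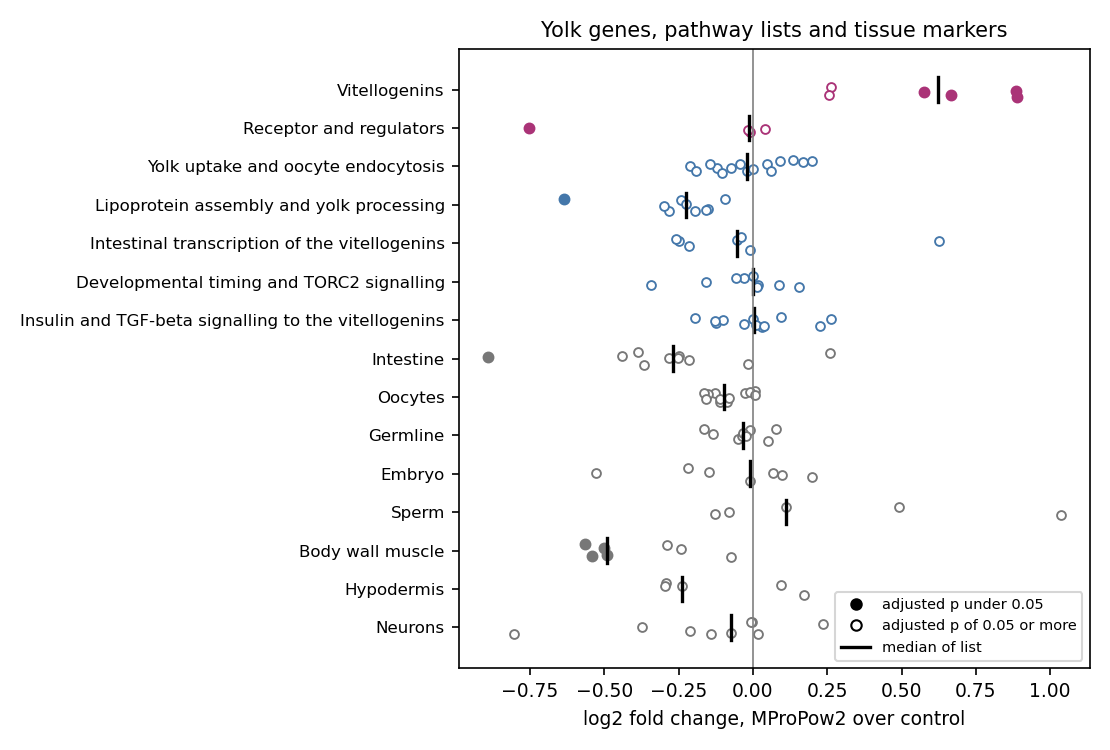
log2 fold change of MProPow2 over control for each gene tested, in rows for the 6 vitellogenins, the receptor and regulators, 5 pathway lists (blue) and 8 tissue marker lists (grey). Filled points have an adjusted p under 0.05 and black ticks are the row medians, which are 0.62 for the vitellogenins and lie between -0.49 (body wall muscle) and 0.11 (sperm) for the lists.

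The 10 genes have 18 protein-coding neighbours in the RefSeq annotation, of which 13 were tested. Of these, edgeR called 0 at adjusted p, against 1.53% higher and 1.47% lower over all genes tested, and DESeq2 called 1. At an unadjusted p of 0.05, edgeR gave 2 higher and 1 lower, against 9.13% higher and 7.75% lower over all genes tested. C42D8.9, which overlaps *vit-2*, had at most 8 counts in any library. The 2 noncoding genes that overlap *vit-3* and *vit-4*, T27A10.8 and F59D8.3, had 0 counts in every library. The handling of reads that hit 2 genes is not given, so these counts do not show that the genes are silent.

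The genes whose profile over the 6 libraries was closest to the summed vitellogenins were F53B1.8, T07E3.4, *hir-1*, *sesn-1* and F32B5.6. Likeness was the root mean square distance between centred log2 CPM values, among 7743 genes with a mean of at least 10 CPM, and it ran from 0.031 for F53B1.8 to 0.056 for F32B5.6. The distance of *vit-6* itself was 0.080 and that of *vit-2* was 0.084, while those of *vit-1* and *vit-3* were 0.24 and 0.25. The 5 genes had log2 fold changes of 0.35 to 0.41, and none passed the adjusted threshold in edgeR (adjusted p from 0.063 to 0.14). They were selected for this likeness, so their profiles are a description.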

How the data were processed

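RNA-seq was carried out on 6 whole-animal samples, 3 control and 3 MProPow2, assigned by their titles, and each column of values belonged to 1 of them. Reads, sequenced in pairs, were aligned with HISAT2 version 2.0.5 and assigned to genes with featureCounts by the authors, who deposited raw counts along with FPKM values (fragments per kilobase of gene, scaled for depth). Neither the build nor the strand setting nor the handling of multi-mapped reads is given in the sources used here, and no coordinates are printed. A RefSeq table held 46920 of the 46936 identifiers.

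The main test was that of edgeR 4.0.16 under R 4.3.3 (filterByExpr with a minimum count of 10, TMM scaling, quasi-likelihood F test, no covariates), with Benjamini-Hochberg adjustment over 14534 genes and a threshold of 0.05. A positive log2 fold change means higher in MProPow2. The common biological coefficient of variation was 13.9%. The script was tested on simulated data. Levels are TMM-scaled CPM, and FPKM where genes are compared with each other. Between any pair of replicates in a group, chi-square values were 14.7 per degree of freedom or more, so none was the same library sequenced again. These values do not show whether the RNA samples were independent. Ribosomal RNA genes took 0.208% to 1.96% of counts.

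The genes and lists were chosen with earlier results of these data known. Named are the 10 genes, pathway genes past the threshold or with the smallest p of their list, up to 3 markers per list past the threshold, and the 5 genes closest in profile to the summed vitellogenins. Other named genes illustrate a list or adjoin one of the 10. Alternatives were RLE and upper-quartile scaling, scaling without the vitellogenins, no filter, a minimum of 10 counts per library, DESeq2 1.42.0, a replicate block, leaving out each library, and limma 3.58.1 on log2(FPKM + 1) or log2(FPKM + 0.1), for genes whose mean FPKM reached 0.1 or for all genes.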

Additional observations from a re-analysis of the deposited data

How the results depend on the processing

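Under the 16 alternatives the 6 vitellogenins stayed positive and *pqm-1* negative in each, whereas *rme-2* ran from -0.17 to 0.10 on the log2 scale, *unc-62* from -0.16 to 0.05 and *ceh-60* from -0.02 to 0.14, across 0. Of the 10 genes, 4 were called higher with all libraries, 1 to 4 when single libraries were left out, 2 with a replicate block, and, with limma, 3 at a pseudocount of 1, 1 at a pseudocount of 0.1 and 2 at a pseudocount of 1 without a filter. The count called lower was 1, 0 to 1 when single libraries were left out, and 0 with each of the 3 limma settings. In that order, limma gave *vit-4* adjusted p of 0.069, 0.11 and 0.11, *vit-3* 0.049, 0.073 and 0.16, and *vit-5* 0.040, 0.063 and 0.031. The calls of *dsc-4*, *asp-1* and the 4 muscle markers were lost in all 3. The ratio of the summed vitellogenins ran from 1.30 to 1.39. Neither the labels nor the paper state whether replicate numbers pair the samples. After centring on group means, same-numbered libraries of the 2 groups had correlations of -0.048, 0.0955 and -0.116. Differently numbered libraries ran from -0.20 to 0.19. Such correlations cannot show whether same-numbered samples were handled together. The block lost *vit-4* (edgeR adjusted p = 0.072) and *vit-5* (0.062), and over all genes gave 90 higher and 102 lower. Among the lists, the lipoprotein genes called lower numbered 1, and 0 to 1 without single libraries. Intestine markers called lower numbered 1, with 3 without a filter, 2 with DESeq2 and 0 to 2 without single libraries. Body wall muscle markers called lower numbered 4, with 1 under the replicate block and 0 to 5 without single libraries. Neuron markers called lower numbered 0, with 1 without a filter, 1 with DESeq2 and 0 to 1 without single libraries, and 1 sperm marker was called higher without a filter. The remaining list counts under DESeq2 were those of edgeR. Over all genes, the 223 higher and 214 lower became 684 and 542 without a filter, 341 and 388 with DESeq2, 17 and 55 when control replicate 2 was left out, 627 and 417 when MProPow2 replicate 3 was, and 34 and 47 with limma on log2(FPKM + 1). The cause of these shifts was not tested. Among the 10 genes *ceh-60* had the fewest counts, 261 to 332 per library.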
